A study of Mus musculus with 4 samples.

Results

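Open chromatin was described at 9 mouse genes of the AP-1 group, out of 19736 protein-coding genes found in both annotations used. The genes were Fos, Fosb, Fosl1 and Fosl2, which code for the Fos proteins, Jun, Junb and Jund, which code for the Jun proteins, Atf3, which codes for a related leucine zipper factor, and Egr1, which codes for a zinc finger factor outside the AP-1 family. They were chosen by name, with earlier results of these data known. A peak counted as a promoter peak of a gene when its summit lay within 1 kb of the transcription start site (TSS). All peaks in the gene body and 50 kb on each side were also collected. These loci held 121 of 76242 peaks in Cho Rep1, 194 of 148330 in Cho Rep2, 142 of 90971 in WT and 213 of 169591 in the double-deletion library.

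AP-1 is a pair of basic leucine zipper proteins, usually 1 Fos protein and 1 Jun protein, that binds the DNA sequence TGACTCA or TGAGTCA. Fos, Fosb, Jun, Junb, Atf3 and Egr1 are known as immediate early genes, whose transcription rises quickly after growth factors, serum, stress or handling of cells and needs no new protein. In the growth plate, AP-1 is known for its part in the maturation of chondrocytes, and Fosl2 and Jun have known roles in cartilage of the mouse.

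The libraries were made by ATAC-Seq, in which the Tn5 transposase inserts sequencing adapters where chromatin is open. All came from primary chondrocytes of rib cartilage, dissected from newborn mice, freed with collagenase and grown in medium with serum for few passages. Cho had 2 replicates, Cho Rep1 and Cho Rep2, whose labels give no genotype. WT and the deletion, E160(delta/delta);E308(delta/delta), had 1 library each. The deletion mice lack both E160 and E308, which are elements upstream of Sox9, and were made by Cas9 editing of C57BL/6J embryos. WT and deletion mice came from crosses between heterozygotes. With 1 library per genotype, any difference between WT and the deletion compares 2 libraries, and no test of the genotypes was possible. The methods name 2 biological replicates for ATAC-Seq. Whether the Cho replicates came from separate animals is not given in the labels.

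Depth, taken from the background of each list, was between 4622 tags per Mb of genome in WT and 20816 in Cho Rep2. Cho Rep1 was called against 1 constant background, and the other lists against local backgrounds. Markers of chondrocytes had a promoter peak for 9 of 10 genes in WT, where 62.2% of all genes had one, for 9 in Cho Rep2 and the double-deletion library and for 5 in Cho Rep1, where 58.6% of all genes had one. Comp, a cartilage matrix gene, had none in any library. Of 6 fibroblast markers 3 were called in Cho Rep1, 5 in Cho Rep2 and WT and 6 in the double-deletion library. Of 5 markers each, between 2 and 3 were called for endothelium, between 0 and 3 for epithelium and for muscle, and 0 for blood in every library. The part of other cell types in the values given here was not tested.

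Sequences were read around the summits for a known control element of immediate early genes, a motif chosen after values were seen. The CArG box, a stretch of A and T bases between CC and GG, is the binding site of serum response factor, through which serum switches on immediate early genes. Within 100 bp of a promoter summit it was found at Fos, Fosb and Egr1, in 3 of 13 promoter peaks of the 9 genes in WT. Of all promoter peaks, 0.763% held one in WT. In the double-deletion library it was found in 3 of 12 promoter peaks, against 0.764% of all, and in Cho Rep1 in 2 of 9, at Fosb and Egr1, against 0.842% of all. Junb had no CArG box within 100 bp of its promoter summits, but had one beside each of 2 flanking peaks, upstream and downstream of the gene. The following windows of 201 bp from NCBIM37 (mm9), plus strand and centred on WT summits, are shown because each holds a CArG box, printed in capitals.
Fos, summit -335 bp from the TSS, chr12:86814405-86814605: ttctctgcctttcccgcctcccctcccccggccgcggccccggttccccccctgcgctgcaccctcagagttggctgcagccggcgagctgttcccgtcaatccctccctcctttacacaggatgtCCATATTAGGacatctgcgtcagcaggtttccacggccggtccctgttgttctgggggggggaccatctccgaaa
Fosb, summit -295 bp from the TSS, chr7:19895589-19895789: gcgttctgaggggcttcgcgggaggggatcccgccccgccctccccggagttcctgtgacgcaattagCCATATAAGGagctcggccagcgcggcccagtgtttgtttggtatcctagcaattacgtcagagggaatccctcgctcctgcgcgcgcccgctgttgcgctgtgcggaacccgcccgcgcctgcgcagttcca
Junb, summit -1499 bp from the TSS, chr8:87504016-87504216: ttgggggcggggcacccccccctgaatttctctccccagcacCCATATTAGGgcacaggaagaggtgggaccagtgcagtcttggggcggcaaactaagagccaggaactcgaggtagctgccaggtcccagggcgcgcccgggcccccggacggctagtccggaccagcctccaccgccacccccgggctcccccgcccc
Junb, summit 2044 bp from the TSS, chr8:87500473-87500673: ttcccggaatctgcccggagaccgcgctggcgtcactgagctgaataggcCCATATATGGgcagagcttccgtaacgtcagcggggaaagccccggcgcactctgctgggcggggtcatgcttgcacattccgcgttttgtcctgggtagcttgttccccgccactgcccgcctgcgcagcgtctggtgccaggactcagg
None of these windows overlapped an annotated exon. The middle of the CArG box lay at -305 bp from the TSS in Fos, at -267 bp in Fosb and at -1445 bp and 2090 bp in Junb. The match at Fos and the upstream match at Junb had the same letters. A match is a description of the sequence and does not show that the factor was bound.

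A second set of 201-bp windows from the same build and strand is shown because each is the strongest distal WT peak of its locus that was called in all 4 libraries and had an AP-1 site within 100 bp of the summit. TGACTCA and TGAGTCA, which are each other's complement, are in capitals.
Fos, summit 45885 bp from the TSS, chr12:86860625-86860825: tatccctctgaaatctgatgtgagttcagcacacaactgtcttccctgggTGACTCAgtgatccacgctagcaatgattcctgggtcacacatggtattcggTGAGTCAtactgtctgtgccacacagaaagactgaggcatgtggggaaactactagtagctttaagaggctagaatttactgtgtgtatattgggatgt
Fosl2, summit 55758 bp from the TSS, chr5:32494503-32494703: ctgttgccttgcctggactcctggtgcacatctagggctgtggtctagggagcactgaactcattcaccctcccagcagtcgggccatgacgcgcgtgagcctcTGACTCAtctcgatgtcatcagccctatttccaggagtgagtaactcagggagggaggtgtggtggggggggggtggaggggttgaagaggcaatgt
Jun, summit 50621 bp from the TSS, chr4:94668192-94668392: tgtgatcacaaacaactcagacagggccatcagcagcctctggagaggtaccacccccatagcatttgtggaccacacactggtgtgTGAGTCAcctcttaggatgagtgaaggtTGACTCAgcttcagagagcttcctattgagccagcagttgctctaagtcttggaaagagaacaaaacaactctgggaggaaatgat
Jund, summit -15393 bp from the TSS, chr8:73206145-73206345: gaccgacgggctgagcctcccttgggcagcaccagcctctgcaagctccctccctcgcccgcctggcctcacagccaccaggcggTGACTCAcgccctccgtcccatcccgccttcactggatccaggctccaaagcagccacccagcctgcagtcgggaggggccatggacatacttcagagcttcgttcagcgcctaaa
The Fos and Jun windows held 2 such sites each. The Fosl2 and Jund windows held 1 site each, and these peaks had the highest fold enrichment in WT of any distal peak of their loci. Peaks meeting the same rule at Fosb, Fosl1, Junb and Atf3 are not printed, and were not the strongest distal WT peaks of their loci.

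Promoter peaks were called in all 4 libraries at 8 of the 9 genes, and 52.8% of all genes had one in all 4. Jund, whose protein is known to be present also in resting cells, was the exception. Its only promoter peak was in WT, 738 bp downstream of the annotated TSS, with a fold enrichment of 3.35. By library, 8 genes were called in Cho Rep1 (58.6% of all genes), 8 in Cho Rep2 (64.9%), 9 in WT (62.2%) and 8 in the double-deletion library (67.8%).

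The nearest Jund summits outside the window lay 1095 bp downstream of the TSS in Cho Rep1, 1168 bp in Cho Rep2 and 1309 bp in the double-deletion library. Their fold enrichments were 19.4, 6.16 and 4.33. When any annotated transcript start was allowed, Jund was also called in Cho Rep1, -124 bp from a start, in WT at 8 bp and in the double-deletion library at 90 bp. The 1000 bp around the annotated Jund TSS had 46.7% G and C, where the median of all genes was 55.5%, while the other 8 genes had between 59.0% and 67.7%. In these 3 libraries a Jund summit thus lay near a start inside the annotated gene.

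Each deposited list gives a fold enrichment at the summit, the number of tags piled up there plus 1, over the number expected from the background plus 1. At Fos (chr12:86814840-86818223, plus strand), the first immediate early gene of the family, the fold enrichment was 14.8 in Cho Rep1, 6.02 in Cho Rep2, 4.70 in WT and 3.94 in the double-deletion library. The summits lay between 34 bp and 77 bp downstream of the TSS. WT and the double-deletion library had a second, weaker promoter peak at the CArG box, -335 bp and -327 bp from the TSS, with fold enrichments of 3.32 and 3.38.

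At Fosb (chr7:19888070-19895394, minus strand), which codes for the Fos protein that also has a short stable form, the fold enrichment was 6.76 in Cho Rep1, 3.96 in Cho Rep2, 4.24 in WT and 5.08 in the double-deletion library. The strongest summit was the upstream one near the CArG box in 3 libraries: at -351 bp for Cho Rep1, -295 bp for WT and -301 bp for the double-deletion library. Cho Rep2 also had its strongest summit upstream, at -283 bp, but this was counted from the Fosb start of a different annotation. Motifs were not searched in Cho Rep2, so how near this summit lay to the CArG box was not tested. A weaker summit within 100 bp of the TSS was listed in Cho Rep2, WT and the double-deletion library, with fold enrichments of 3.68, 3.86 and 4.03.

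Fosl1 and Fosl2 code for Fra-1 and Fra-2, Fos proteins without a strong activation domain. At Fosl1 (chr19:5447703-5455945, plus strand) the fold enrichment was 7.18, 9.26, 7.32 and 8.12, in the order Cho Rep1, Cho Rep2, WT and double-deletion library. These 4 values lay closer together than those of any other gene called in all 4. At Fosl2 (chr5:32438845-32460204, plus strand) it was 32.1, 9.36, 6.44 and 4.81, with summits between -655 bp and -712 bp upstream of the TSS. The Fosl2 interval was between 1021 bp and 1632 bp wide, and in Cho Rep2, WT and the double-deletion library it ended short of the TSS. The double-deletion library also had a separate peak of 90 bp over the Fosl2 TSS, with a fold enrichment of 2.21 at -22 bp.

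Jun (chr4:94715725-94718913, minus strand) codes for c-Jun, the main partner of Fos proteins. Its fold enrichment was 43.9 in Cho Rep1, 10.2 in Cho Rep2, 5.50 in WT and 4.95 in the double-deletion library. The strongest Jun summit of each library lay within 118 bp of the TSS. The Cho Rep1 interval was 4100 bp wide with 8 summits, the widest promoter interval of that library. WT and the double-deletion library had a further Jun peak just outside the promoter window, at -1.02 kb and -1.04 kb, with fold enrichments of 5.08 and 4.84. At Junb (chr8:87500811-87502617, minus strand), which codes for a weaker activator that can hold c-Jun in check, the values were 21.5, 4.79, 3.29 and 3.07 in the same order. Junb had the lowest fold enrichment of the 9 genes in WT and in the double-deletion library.

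At Atf3 (chr1:192994175-193007219, minus strand), a stress-induced gene, the fold enrichment was 35.5 in Cho Rep1, 11.0 in Cho Rep2, 8.01 in WT and 8.13 in the double-deletion library. Atf3 had a pair of promoter peaks in WT and in the double-deletion library. The upstream one had 7.74 at -173 bp in WT and 8.13 at -135 bp in the double-deletion library. The downstream one had 8.01 at 816 bp in WT and 6.18 at 793 bp in the double-deletion library. In the Cho lists 1 interval of about the same width, 1808 bp and 1794 bp, covered both positions.

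At Egr1, which codes for a growth factor-induced zinc finger protein, the fold enrichment was 22.0 in Cho Rep1, 6.45 in Cho Rep2, 4.67 in WT and 4.11 in the double-deletion library. The Egr1 interval was wide in every list, from 1212 bp in WT to 2231 bp in Cho Rep1.

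**Figure D1:**
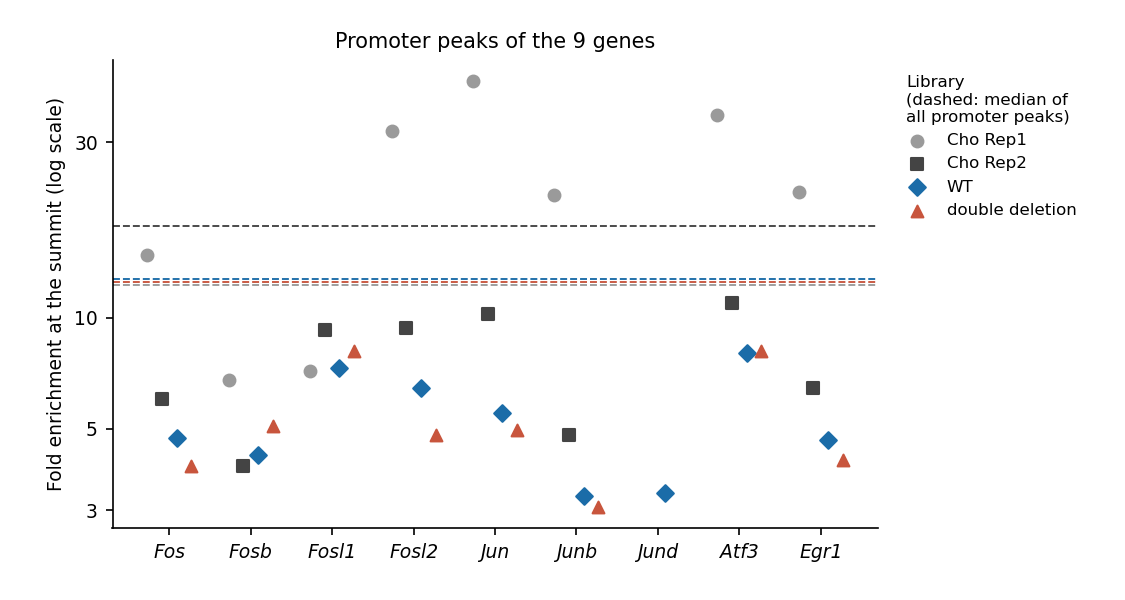
Fold enrichment of the strongest promoter peak of each gene in each library, on a log axis, with dashed lines for the median of all promoter peaks in that library (12.2 in Cho Rep1, 17.7 in Cho Rep2, 12.7 in WT and 12.5 in the double-deletion library). In Cho Rep2, WT and the double-deletion library every gene lies below its library's line, and in Cho Rep1 Fosb and Fosl1 do. Jund has a point in WT alone.

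The Cho replicates differed in fold enrichment at these promoters. Averaged over both, fold enrichment came to 27.1 ± 23.8 (SD, n = 2) at Jun, 23.2 ± 17.3 at Atf3, 20.7 ± 16.1 at Fosl2, 14.2 ± 11.0 at Egr1, 13.2 ± 11.8 at Junb, 10.4 ± 6.20 at Fos, 8.22 ± 1.47 at Fosl1 and 5.36 ± 1.98 at Fosb. In this order each neighbour differed from the next by less than the larger SD of the pair, except Fosl1 and Fosb. By percentile of summit pileup, the number of tags at the summit ranked among all promoters with a peak in the same library, the replicates lay closer at several genes. That percentile was 91.2 ± 0.402 at Fosl2, 75.4 ± 3.62 at Junb, 94.0 ± 4.14 at Jun, 83.9 ± 7.18 at Egr1, 30.9 ± 10.02 at Fosl1, 82.3 ± 16.1 at Atf3, 72.7 ± 18.04 at Fos and 39.8 ± 25.9 at Fosb. At Atf3 the strongest summit lay at -200 bp in Cho Rep1 and at 781 bp in Cho Rep2, so its averages join different summits. The replicates used different backgrounds and different genome builds, which cannot be told apart from a difference between the cells.

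Where each gene stood among all promoters depended on the measure. Percentiles were taken among promoters with a peak in the same library. By fold enrichment, the median percentile of the called genes was 78.4 in Cho Rep1, 13.7 in Cho Rep2, 2.58 in WT and 4.90 in the double-deletion library. By the summit pileup itself it was 78.4, 79.2, 66.9 and 85.0. So the same peaks were among the weakest by fold enrichment and above the middle by tags in the 3 libraries with local backgrounds.

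The summit pileup, divided by the background of the library, was 149.8 at Fos, 147 at Jun, 149.8 at Fosl2 and 164 at Egr1 in WT, where the median of all promoter peaks was 80.4. It was 101, 105, 102 and 117 in the double-deletion library, where the median was 65.5. In Cho Rep2 these 4 genes had values from 151 to 177, against a median of 67.5. Egr1 stood at the 97.8th percentile of pileup in WT and the 97.7th in the double-deletion library, but at the 2.49th and 1.82nd percentile of fold enrichment.

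Fosl1 was lowest by pileup in these 3 libraries, at the 38.0th percentile in Cho Rep2, the 27.2nd in WT and the 40.5th in the double-deletion library. In each of the 3 libraries 7 of the called genes were above the median pileup and 0 were above the median fold enrichment. Of all promoters with a peak, 11.3% were above the median pileup and below the median fold enrichment in Cho Rep2, 10.4% in WT and 13.8% in the double-deletion library. Fosl1 was the gene below both medians in all 3, and Jund in WT.

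Fold enrichment divides the pileup by the local background, the number of tags MACS2 expects at the summit from the surrounding positions of the same library. The local background was high at these genes. Its median over the called genes was 19.3 times the library background in Cho Rep2, 21.2 times in WT and 20.0 times in the double-deletion library. Over all promoters with a peak the median was 3.21, 3.38 and 3.31 times. In WT the local background was 32.9 times the library background at Egr1, 29.7 at Fos, 29.3 at Junb, 24.4 at Jun, 21.2 at Jund, 20.9 at Fosl2, 17.5 at Fosb, 10.4 at Atf3 and 4.80 at Fosl1. How far the tags of the peak itself, or tags beyond it, made up this local background was not tested.

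Apart from Fosl1, the local background of every called gene was above the 94th percentile in each of these libraries. The lowest of them was Atf3 in Cho Rep2, at 94.8. Fosl1 was at 73.0 in Cho Rep2, 72.1 in WT and 83.0 in the double-deletion library. Cho Rep1, with its constant background, gave no local value. The genes were also short, with a median of 3.78 kb against 17.5 kb for all genes, from 1.81 kb at Junb to 21.4 kb at Fosl2. The part of gene length in the local background was not tested.

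**Figure D2:**
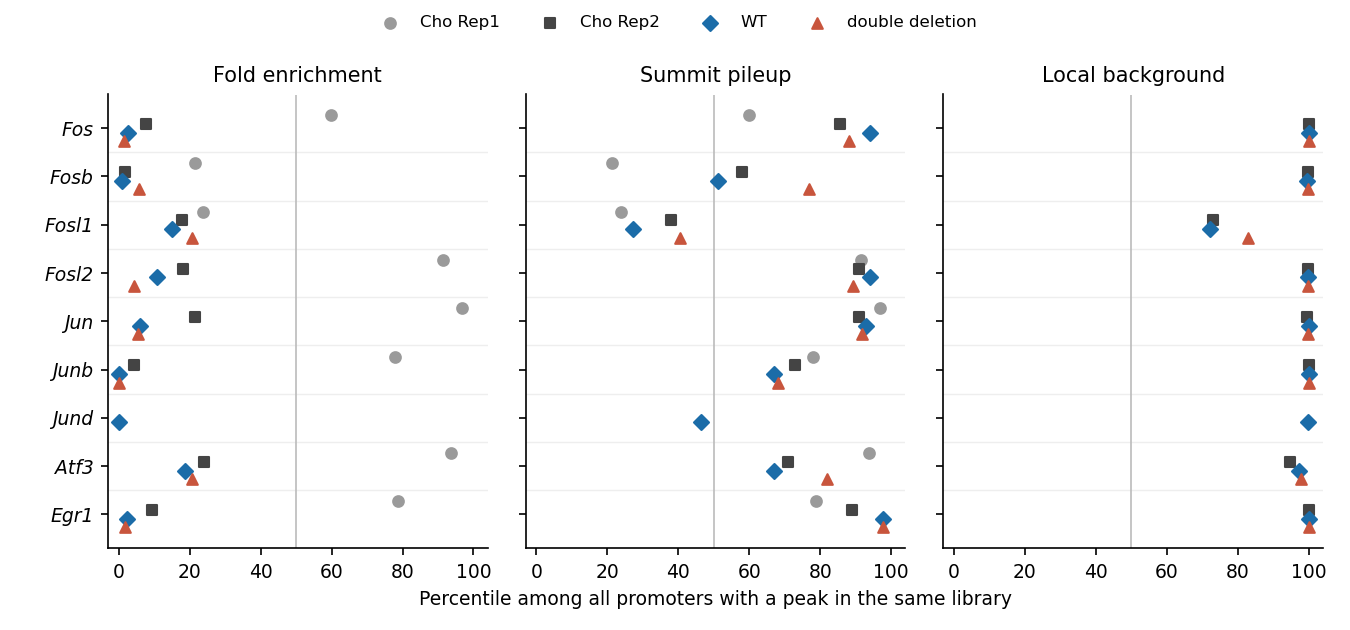
Percentile of each gene's promoter peak among all promoters with a peak in the same library, for fold enrichment, for summit pileup and for local background, with a grey line at the middle. In Cho Rep2, WT and the double-deletion library the fold enrichment of every called gene lies in the left part of its panel, at most at 24.0, while local background lies at the right edge for all but Fosl1. Cho Rep1 has no local background to plot.

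Other genes of the same pathway were counted from lists. Of 20 other immediate early genes, 18 had a promoter peak in all 4 libraries. Their median percentile of fold enrichment was 69.2 in Cho Rep1, 21.3 in Cho Rep2, 12.9 in WT and 11.6 in the double-deletion library, and of pileup 69.2, 67.8, 69.1 and 75.3. Zfp36, an mRNA decay factor, had the lowest mean percentile of the list, with fold enrichments of 8.45, 3.89, 3.36 and 3.17. Dusp1, a phosphatase that ends MAP kinase signals, followed with 11.0, 4.07, 3.70 and 3.03. Nr4a2 and Ier5 had the highest, and Nr4a2, an orphan nuclear receptor, had 22.8, 18.8, 13.0 and 15.2.

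Of 22 other leucine zipper genes found, 16 had a promoter peak in all 4 libraries, and Nrl, a photoreceptor factor, had none in any. Their median percentile of fold enrichment was 41.0 in WT and of pileup 62.4. Mafa and Creb1 were highest, and Maf, a large Maf factor of cartilage and lens, and Atf1 were lowest of those called in all 4. Maf had fold enrichments of 13.1, 4.52, 7.70 and 7.17.

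Of 25 upstream regulators, such as MAP kinases and serum response factor, 20 were called in all 4, with a WT median percentile of 48.6 by fold enrichment and 58.2 by pileup. Map2k4, which codes for a kinase upstream of JNK, was among the highest, with fold enrichments of 23.6, 37.1, 21.2 and 17.6. Mapk3, which codes for the kinase ERK1, had 5.91, 8.03, 6.53 and 5.49, and Mapk11 was the lowest. Of the 3 lists, that of the other immediate early genes came nearest to the 9 genes in its medians of fold enrichment. Over 10409 genes called in all 4 libraries outside the 9, the percentiles nearest to the median of the 9 genes were those of the histone genes Hist1h2ae and Hist1h2bg, at a distance of 5.40 percentile points, and Cgref1 at 5.46. Hist1h2ae and Hist1h2bg had the same percentiles, 77.1, 16.7, 5.82 and 2.10 in the library order. A summit within 1 kb of both starts counts for both genes, so their values may come from the same peak.

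Between WT and the double-deletion library, the 8 genes with a promoter peak in both were compared at a difference of 1.5-fold, and the count depended on the scaling. By fold enrichment 0 were higher in the double-deletion library (6.54% of all promoters called in both) and 0 lower (0.393%). By pileup over library background 0 were higher (2.29%) and 0 lower (6.72%). By pileup over depth in tags, which is the library background divided by the shortest peak width of the list, 0 were higher (1.29%) and 4 lower (17.9%). The log2 ratio of fold enrichment, deletion over WT, ran from -0.42 at Fosl2 to 0.26 at Fosb, with a median of -0.13 against 0.01 for all 12225 promoters.

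Raw summit pileups were 54 in WT and 63 in the double-deletion library at Fos, 54 and 64 at Fosl2, 53 and 66 at Jun, 59 and 73 at Egr1, 37 and 51 at Junb, 37 and 59 at Atf3, 30 and 56 at Fosb and 19 and 36 at Fosl1. Divided by the library backgrounds, the deletion over WT ratio was 0.672 at Fos (95% exact binomial interval 0.460 to 0.985) and 0.682 at Fosl2 (0.468 to 0.999). These were the 2 intervals that left out 1 under this scaling. The ratio was 0.717 at Jun (0.492 to 1.05), 0.712 at Egr1 (0.498 to 1.02) and 1.07 at Fosb (0.678 to 1.73). Under depth in tags it was 0.620 at Fos (0.424 to 0.909), 0.6298 at Fosl2 (0.432 to 0.922), 0.658 at Egr1 (0.460 to 0.943) and 0.662 at Jun (0.454 to 0.969), and these 4 intervals left out 1. No correction for the 8 genes was made. The intervals cover counting error only and say nothing of the spread between animals.

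The median log2 pileup ratio was -0.41 over the 8 genes and -0.26 over all promoters, so part of the shift was shared by promoters at large. Fos stood at the 7.35th percentile of all promoters by this ratio and Fosl2 at the 9.01st. The intervals of both genes, which left out 1, included the median of all promoters. Over depth in tags the medians were -0.52 and -0.38. The intervals of Fos, Fosl2, Egr1 and Jun under that scaling included the median of all promoters too. At Atf3 the strongest summits of the libraries lay on either side of the TSS, at 816 bp and -135 bp, so its ratio compares different summits. At these depths, differences smaller than the intervals were not detectable.

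**Figure D3:**
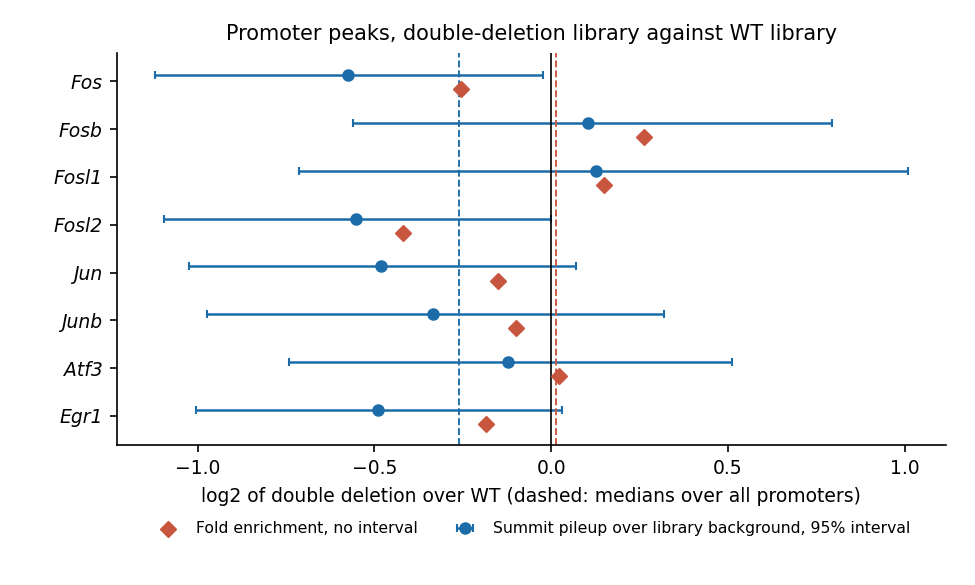
Deletion library over WT library at the promoter peaks of the 8 genes called in both, as log2 ratios, with circles and 95% exact intervals for summit pileup over library background and diamonds for fold enrichment. Dashed lines mark the medians over all promoters, -0.26 for pileup and 0.01 for fold enrichment, and the pileup intervals of 6 of the 8 genes cross 0.

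Distal peaks were counted next, since enhancers of immediate early genes can lie far from the promoter. These were peaks with no summit within 1 kb of the TSS of any annotated gene, protein-coding or not. The 9 loci held 82 distal peaks in Cho Rep1, 150 in Cho Rep2, 89 in WT and 156 in the double-deletion library. The median density was 7.86 per 100 kb in Cho Rep1, 15.5 in Cho Rep2, 8.75 in WT and 16.4 in the double-deletion library. For all genes it was 2.63, 6.67, 3.54 and 7.25. All 9 loci were above the median of all genes in each library.

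The Fos locus had 11, 23, 17 and 24 distal peaks in the library order, and no other protein-coding gene started in it. Its density stood at the 98.9th percentile of all genes or above in every library. The Fosb locus had 11, 20, 14 and 22 and 6 other gene starts. The Jun locus had 16, 16, 10 and 17 and no other protein-coding start, and all its distal WT peaks lay inside annotated transcripts that are not protein coding. Junb had 8, 17, 11 and 17, with 8 other gene starts nearby.

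The remaining loci had between 6 and 17 distal peaks in a library. Fosl1 had 9, 14, 6 and 13, Fosl2 had 6, 16, 8 and 15, Jund had 6, 16, 9 and 15, Atf3 had 8, 14, 7 and 16, and Egr1 had 7, 14, 7 and 17. The lowest percentile of density was that of Fosl1 in WT, at 71.1. The order of the loci was not the same in the 4 libraries.

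**Figure D4:**
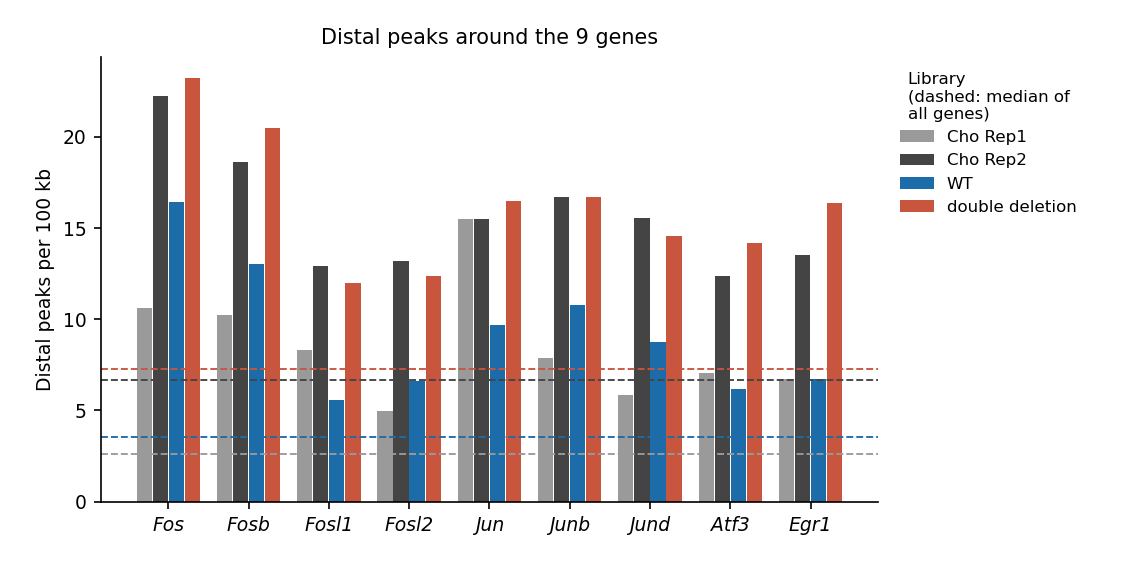
Distal peaks per 100 kb in the gene body and 50 kb on each side of each gene, by library, with dashed lines for the median of all genes in that library. Every bar stands above its library's line, and Fos has the tallest bars in Cho Rep2, WT and the double-deletion library.

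The strongest distal WT peak of each locus was described in all libraries. At Fos it lay 24.1 kb downstream of the TSS (chr12:86838387-86839103, intergenic), with a fold enrichment of 20.3 in Cho Rep1, 14.1 in Cho Rep2, 13.0 in WT and 12.5 in the double-deletion library. At Jund it lay -15.4 kb from the TSS (chr8:73206094-73206474, intergenic), at the AP-1 site shown above, with 18.6, 26.6, 21.9 and 19.7. At Fosl2 it lay at 55.8 kb (chr5:32494495-32494883, intergenic), also at an AP-1 site, with 11.4, 30.2, 14.6 and 16.0. By fold enrichment each of these was above the promoter peak of its own gene in WT. By pileup over library background the order turned at Fos, with 63.8 at the distal peak and 149.8 at the promoter, and at Fosl2, with 77.7 and 149.8. It stayed at Jund, with 136 and 77.7.

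At Jun it lay at -46.3 kb (chr4:94765031-94765361), in an intron of BC042782, with 33.8, 17.1, 11.3 and 12.3. At Junb it lay at -19.3 kb in an exon of Hook2, with 3.38, 29.9, 15.2 and 19.0. At Atf3 it lay at 62.4 kb (chr1:192944791-192945042, intergenic), with 25.4 in Cho Rep2, 24.8 in WT and 25.7 in the double-deletion library, and no peak in Cho Rep1. The strongest Atf3 peak in all 4 lay at 57.2 kb, with 5.07, 27.8, 13.8 and 19.0.

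At Fosb the strongest distal WT peak lay at -10.1 kb (chr7:19905343-19905661, intergenic), with 13.1, 14.9, 13.4 and 10.8. At Fosl1 it lay at -2.57 kb, with 10.1, 18.8, 12.0 and 11.4, and at Egr1 at -10.9 kb, with 4.65, 27.7, 14.0 and 15.7. Which gene a distal element acts on is not given by these data.

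**Figure D5:**
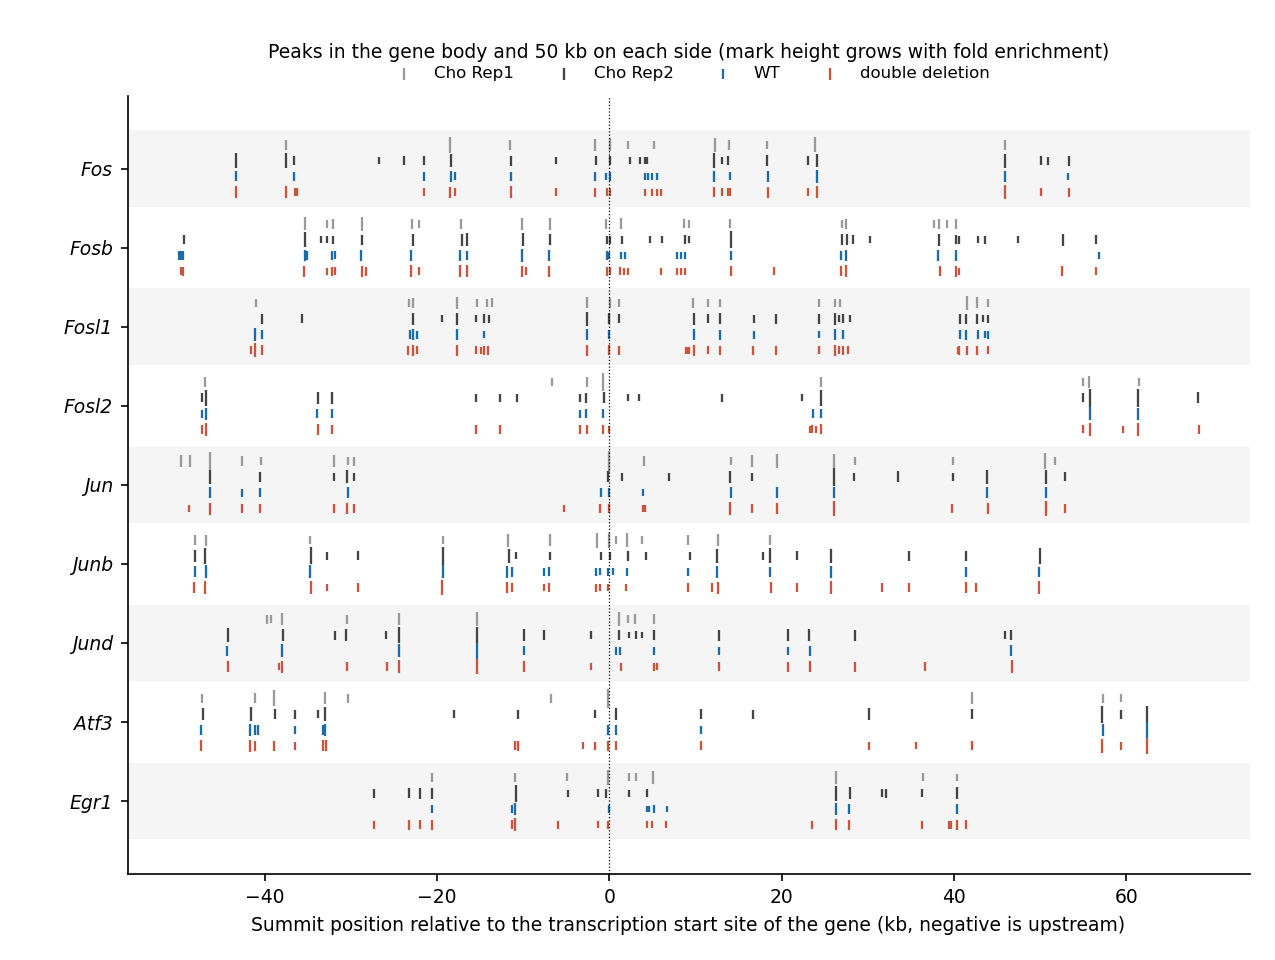
Peaks in the body of each gene and 50 kb on each side, placed by the distance of the summit from the TSS in kb, with 1 row per library and a mark that grows with fold enrichment. Many marks line up through all 4 rows, such as those at 24.1 kb of Fos and -15.4 kb of Jund, and the peak at 62.4 kb of Atf3 is missing from Cho Rep1.

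Distal peaks of the loci were compared between lists. Of 89 WT distal peaks, 86 had a counterpart in the double-deletion list, 96.6% (95% exact binomial interval 90.5% to 99.3%) against 95.3% of all WT distal peaks. Of 156 deletion distal peaks, 55.1% (47.0% to 63.1%) overlapped a WT peak, against 46.0% of all. The deletion list was the longer one, and its share in WT is limited by that.

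With Cho Rep1, 67.4% of WT distal peaks (56.7% to 77.0%) were shared, against 50.4% of all, and 54.5% of deletion distal peaks (46.3% to 62.5%) against 37.7%. In the other direction, 63.4% of the Cho Rep1 distal peaks (52.0% to 73.8%) were found in WT, against 52.6% of all, and 84.1% (74.4% to 91.3%) in the double-deletion library, against 78.0%. Cho Rep2 was matched by distance from the TSS, within 150 bp, because its build differed. Of the WT distal peaks 76.4% were matched there, against 55.8% of all pairs of a gene and a distal peak, of the deletion distal peaks 69.9% against 46.0%, and of the Cho Rep1 distal peaks 74.4% against 44.7%. The share at the 9 loci was above that of all genes in each of these comparisons, but the interval included the share of all distal peaks for WT in the double deletion and for Cho Rep1 in WT and in the double deletion. Peak density was also higher at these loci, and its part in the sharing was not tested. Matching to Cho Rep2 used the TSS of a different annotation in each build. Genes whose starts differ between the annotations by more than 150 bp could go unmatched. How far this lowered the shares of all pairs was not tested.

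In all 4 libraries together, 45 of the 89 WT distal peaks were called, and 29.5% of all pairs of a gene and a distal WT peak. The limit of matching to Cho Rep2 by distance applies here too. The locus counts were 7 of 17 at Fos, 7 of 14 at Fosb, 5 of 6 at Fosl1, 5 of 8 at Fosl2, 6 of 10 at Jun, 7 of 11 at Junb, 3 of 9 at Jund, 2 of 7 at Atf3 and 3 of 7 at Egr1.

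At the 86 distal peaks shared by WT and the double-deletion library, 12 were at least 1.5-fold higher in the double-deletion library by fold enrichment (29.2% of all shared distal peaks) and 0 were lower (1.02%). By pileup over library background 7 were higher (13.3%) and 3 lower (8.39%). The median log2 ratio was 0.16 by fold enrichment, against 0.33 for all, and -0.02 by pileup, against 0.03. The highest ratio of fold enrichment was at -11.4 kb of Fos, 4.37 in WT and 11.2 in the double-deletion library, and its pileup ratio of 2.42 had an interval from 0.887 to 8.21. At 50.6 kb of Jun, the peak with 2 AP-1 sites shown above, fold enrichments were 10.9 for WT and 22.3 for the double deletion, with a pileup ratio of 1.60 (0.852 to 3.20). The lowest was at 7.80 kb of Fosb, with 3.12 in WT, 2.10 in the double-deletion library and a pileup ratio of 0.466 (0.288 to 0.750). These peaks were picked for their extreme values out of 86.

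The AP-1 site was about as frequent in the distal peaks of these genes as in all distal peaks, and each interval included the share of all. TGACTCA or TGAGTCA lay within 100 bp of the summit in 27 of 82 distal peaks in Cho Rep1, 32.9% (22.9% to 44.2%) against 31.5% of all distal peaks. In WT it was 17 of 89, 19.1% (11.5% to 28.8%) against 18.3%, and in the double-deletion library 30 of 156, 19.2% (13.4% to 26.3%) against 20.5%. In WT the Fosb locus had 4 such peaks, Fosl2 had 3, Fos, Jun, Jund and Atf3 had 2 each, Fosl1 and Junb had 1 each and Egr1 had 0. Of the 45 WT distal peaks called in all 4 libraries, 12 had the site, and of the other 44, 5 had it. For all genes the shares were 27.4% and 12.9%, so this contrast too was like that of all genes.

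The RUNX site, TGTGGTT or AACCACA on the other strand, the binding sequence of factors of skeletal development, was found near 2 of 89 WT distal summits, 2.25% (0.273% to 7.88%), against 9.35% of all. In the double-deletion library it was 2.56% (0.703% to 6.44%) against 9.50%, and in Cho Rep1 7.32% (2.73% to 15.2%) against 10.5%. Over the same 201 bp the median share of G and C was 55.2% at the distal WT peaks of the 9 loci and 49.8% at all distal WT peaks. The part of base composition in the low share was not tested.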

How the data were processed

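The authors trimmed reads with fastp, aligned them with Bowtie2 2.4.4, handled them with Picard 2.20.7 and SAMtools 1.9 and called peaks with MACS2 2.2.4, per the submitters' processing notes. The methods give a q-value threshold of 0.05. Each deposited list holds 1 library. Its score is a whole number that MACS2 makes from the q-value, its fold enrichment is a ratio with 1 added to both terms, and the authors also deposited the −log10 p-value and the −log10 q-value of each peak. Positions of Cho Rep2 fitted GRCm38, although the labels name mm9, and were read so, and the other lists were read as NCBIM37. Coordinates were not converted.

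Of entries with the same interval, the one with the highest fold enrichment was kept. Tags at a summit (its pileup) were recovered by finding the whole number and background that give both deposited values under a Poisson model, which succeeded for at least 99.996% of peaks in every list. The solution was tested on simulated data. The library background was the most frequent low background of a list. Genes were the protein-coding genes of GENCODE (NCBIM37) also found in RefSeq (GRCm38), by symbol or synonym. Motifs were searched on both strands in the lists on NCBIM37. Intervals are exact binomial (Clopper-Pearson) at 95% and cover counting error only. No tests were run, since each genotype had 1 library. Named genes were the 9 genes, the highest, lowest and uncalled genes of each related list, the nearest in pattern, and the strongest distal WT peaks of each locus; 1 gene under this rule is not reported here. The distal peaks with the most extreme ratios and the CArG, RUNX, CRE and EGR motifs were chosen after values were seen. The members and lists were chosen with earlier results of these data known. Alternatives covered other windows, q-values, measures, starts, overlaps and equal numbers of peaks. The work was done in Python 3.11.15 with scipy 1.17.1, pandas 2.3.3, numpy 2.4.6 and, for figures, matplotlib. Other assays of the study were not analysed here.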

Additional observations from a re-analysis of the deposited data

How the results depend on the processing

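Depth and single libraries limit these values, so the direction of small ratios is uncertain, and fold enrichments of Cho Rep1 rest on another kind of background. Of the recomputed values, 64 stayed within their spread or within 1.5 times and 21 moved. For percentiles the spread was 45.7 points, the SD of the medians of the Cho replicates, so large shifts counted as within it. With the −log10 q-value as the measure, the median percentile was 53.6 in Cho Rep2, 31.3 in WT and 28.1 in the double-deletion library. By fold enrichment it was 13.7, 2.58 and 4.90. For the Cho replicates the spread was the SD between them, so leaving 1 out could hardly count as moved. No paired analysis was possible because no result comes from a test and the genotypes have 1 library each. With summit pileup as the measure, the median percentile of the genes moved to 79.2 in Cho Rep2, 66.9 in WT and 85.0 in the double-deletion library, since fold enrichment divides by the local background. The median Cho fold enrichment of the 8 genes called in both replicates was 13.7, ranged from 7.85 to 21.7 without 1 replicate, and was 1.05 when divided by each library's median over promoters. The median log2 ratio of deletion over WT moved from -0.13 to -0.41 by pileup over library background and to -0.52 by pileup over depth in tags, and was 0.00 within 2 kb. Promoter peaks in all 4 libraries numbered 8 also without Cho Rep1, an alternative chosen after seeing the data. They numbered 6 within 0.5 kb and 9 within 2 kb. In single libraries, between 53.6% (Cho Rep1) and 63.7% (double deletion) of all genes had a peak within 0.5 kb. Within 2 kb it was between 61.8% (Cho Rep1) and 71.8% (double deletion). The share of all genes in all 4 libraries was not taken at these windows. Within 25 kb the distal peaks numbered 46, 85, 56 and 93 in the library order, and within 100 kb 127, 252, 148 and 265, as the window sets. With the 76242 strongest peaks of each list the distal peaks numbered 64 in Cho Rep2, 56 in WT and 53 in the double-deletion library. Of WT distal peaks 85.7% were then shared with the double-deletion library, and of deletion distal peaks 90.6% with WT and 73.6% with Cho Rep1. The shares of all distal peaks were not taken with these lists. The AP-1 site was found within 50 bp of 20.7% of the Cho Rep1 distal peaks of the genes and of 19.7% of all.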

Other observations

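Other motifs were found near few summits of these genes, though the CRE had a higher share than at all distal summits. The CRE, TGACGTCA, the binding sequence of Creb and Atf factors, was found within 100 bp of 3 of 89 distal WT summits, 3.37% (95% exact binomial interval 0.701% to 9.54%), against 0.485% of all distal WT summits, and of 2 of 82 in Cho Rep1, 2.44% (0.297% to 8.53%), against 0.525%. In the double-deletion library it was 2 of 156, 1.28% (0.156% to 4.55%), against 0.416%. The interval left out the share of all in WT and included it in Cho Rep1 and the double-deletion library. The CRE was found at 0 of 13 promoter summits in WT, with an exact upper bound of 24.7%, against 2.08% of all. The EGR site, GCGTGGGCG or CGCCCACGC on the other strand, was at 0 of 89 distal WT summits and 0 of 13 promoter summits, where 0.758% of all WT promoter summits had it. The CArG box was also found beside a peak at the start of a neighbouring gene, 41.4 kb downstream of Fosl1, with a fold enrichment of 16.0 in Cho Rep1, 7.71 in WT and 6.82 in the double-deletion library, and beside a peak about 12.2 kb downstream of Fos in Cho Rep1, with 19.4, and in the double-deletion library, with 7.63. These motifs were chosen after values were seen, and no test was run on these counts. The part of base composition in the CRE share was not tested either.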
